A study of Mus musculus with 14 samples.

Results

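Isolated narrow H3K27me3 sites were taken from a list of 153983 sites called in immortalised mouse embryo fibroblasts (iMEF). A site was counted as isolated and narrow when it lay on chromosome 1 to 19, was over 200 and under 1000 bp wide, and had the nearest listed site on each side more than 20 kb away. The rule was met by 5826 sites, or 3.78% of the list and 6.32% (95% Wilson interval 6.16 to 6.48) of the 92219 autosomal sites in this range of widths. The other 86393 sites of the same range had at least 1 listed neighbour within 20 kb, or no neighbour on one side, and are called non-isolated. Width and spacing chose the members and are given below as descriptions without a test. Base content and gene location were not used to choose them.

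The list stems from ChIP-seq on iMEF cells that express FKBP-HA2-ASH2L, human ASH2L fused to the FKBP12F36V tag and introduced by a lentivirus, with exon 4 of the endogenous Ash2l deleted through Cre-ER in control and treated cells alike. The libraries were made from NG3 cells, which are 1 clone, as the study states. The compound dTAG-13 links the tag to an E3 ubiquitin ligase, and the fusion protein is degraded. There were 12 H3K27me3 libraries, 2 replicates each of control cells and of cells exposed to dTAG for 30 min, 2 h, 4 h, 8 h or 16 h, and 2 input libraries, 1 without dTAG and 1 with it. The sites of all samples were combined by the authors into 1 list that holds positions and no values per library. Times of treatment were therefore not compared, the label iMEF could not be checked against marker genes, and the read depth behind a site is unknown.

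H3K27me3, histone H3 trimethylated at lysine 27, is set by Polycomb repressive complex 2 (PRC2) and is read by other Polycomb proteins that keep genes silent. In mammalian cells the mark is best known from broad domains over silent CpG islands, such as those of developmental transcription factors and of the Hox clusters, and it also spreads at a low level between genes. CpG dinucleotides are rare in most of the mouse genome and dense in CpG islands, so the ratio of observed to expected CpG separates islands from other GC-rich sequence.

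Sequences of 5 members show the range of their base content. They were read on the plus strand of GRCm38.p6 from RefSeq, with each CpG in capitals. Shown are, among members of at most 300 bp that overlap no untranslated part of an exon, the pair with the highest CpG ratio, the one farthest from a neighbour and the pair closest to the median GC content.
CpG-rich, coding exon of Shroom3, chr5:92942192-92942467: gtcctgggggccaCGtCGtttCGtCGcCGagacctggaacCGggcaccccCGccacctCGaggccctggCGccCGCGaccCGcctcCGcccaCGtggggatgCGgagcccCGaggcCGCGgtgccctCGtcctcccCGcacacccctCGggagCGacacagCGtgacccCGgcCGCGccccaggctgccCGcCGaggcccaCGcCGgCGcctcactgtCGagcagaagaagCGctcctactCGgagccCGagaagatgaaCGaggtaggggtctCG
CpG-rich, intergenic beside the pseudogene Gm13736, chr2:87525957-87526240: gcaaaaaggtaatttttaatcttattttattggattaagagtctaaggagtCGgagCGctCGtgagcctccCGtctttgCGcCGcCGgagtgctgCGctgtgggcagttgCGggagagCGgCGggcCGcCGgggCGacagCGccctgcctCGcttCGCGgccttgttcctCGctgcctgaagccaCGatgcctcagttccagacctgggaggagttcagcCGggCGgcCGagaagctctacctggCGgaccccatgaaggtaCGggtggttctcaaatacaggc
Far from neighbours, intergenic near Gm10801, chr2:98645284-98645484: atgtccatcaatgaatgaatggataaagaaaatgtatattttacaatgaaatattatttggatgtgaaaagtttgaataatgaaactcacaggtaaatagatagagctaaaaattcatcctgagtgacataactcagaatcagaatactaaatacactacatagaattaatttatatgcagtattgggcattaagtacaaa
Median GC, intergenic, chr8:74477886-74478184: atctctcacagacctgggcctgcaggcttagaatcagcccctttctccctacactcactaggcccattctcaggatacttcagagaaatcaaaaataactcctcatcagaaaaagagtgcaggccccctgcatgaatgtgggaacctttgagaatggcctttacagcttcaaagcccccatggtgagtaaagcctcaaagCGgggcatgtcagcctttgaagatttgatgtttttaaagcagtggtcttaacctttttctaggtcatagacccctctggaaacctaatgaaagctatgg
Median GC, intron of Kcnmb4, chr10:116449515-116449742: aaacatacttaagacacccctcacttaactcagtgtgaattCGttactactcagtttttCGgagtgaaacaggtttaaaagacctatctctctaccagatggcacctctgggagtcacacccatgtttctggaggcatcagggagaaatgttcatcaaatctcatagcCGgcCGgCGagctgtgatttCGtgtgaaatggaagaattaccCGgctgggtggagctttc

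The site in Shroom3, which encodes an actin-binding protein of cell shape, held 37 CpGs in 276 bp at a GC content of 74.6%. The site labelled as beside Gm13736, a processed pseudogene, held 25 CpGs in 284 bp. Only its centre was taken as intergenic. The start of Gm13736 lay 46 bp from that centre, so the site reached over this start. In contrast, the 201 bp on chromosome 2 near Gm10801 held no CpG at 26.9% GC. The members of median GC (46.5% each) held 1 CpG on chromosome 8 and 7 CpGs in the intron of Kcnmb4, a subunit of a potassium channel.

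The members covered 2159 kb in all, with a median width of 362 bp and a middle range from 277 to 390.8 bp. Non-isolated sites had a median width of 416 bp. The narrowest members were 201 bp wide (79 sites) and the widest 998 bp. Just outside the rule were 2386 isolated sites of exactly 200 bp, the smallest width in the list, and 284 isolated sites of 1000 bp or more. The nearer neighbour of a member lay 20008 bp away at the least and that of the next site outside the rule 19990 bp. Its median distance was 40976 bp, and the farther neighbour lay at a median of 102450 bp. In 909 members (15.6%) the nearer neighbour was over 100 kb away, in 44 over 500 kb. Both neighbours were themselves members for 829 sites (14.2%), so that some members formed sparse series.

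The widths of the members had a sharp maximum. Widths from 351 to 380 bp were held by 1787 members, or 30.7% (29.5 to 31.9), against 6956 non-isolated sites, or 8.05% (7.87 to 8.24). The narrower class from 361 to 370 bp alone held 1124 members (19.3%) and 3.42% of the non-isolated sites. The single most common width was 370 bp with 210 members, followed by 369 bp with 161 and 365 bp with 145. Of all same-width sites of 351 to 380 bp, 20.4% (19.6 to 21.3) were isolated, while the isolated share was 8.57% at 201 to 250 bp, 7.13% at 301 to 350 bp, 4.38% at 381 to 500 bp and 1.68% at 701 to 999 bp. By autosome this class made up 25.7% (chromosome 18) to 35.9% (chromosome 12) of the members. The class was chosen after the widths had been seen. It is therefore described without a test, and the comparisons below were repeated without it.

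**Figure D1:**
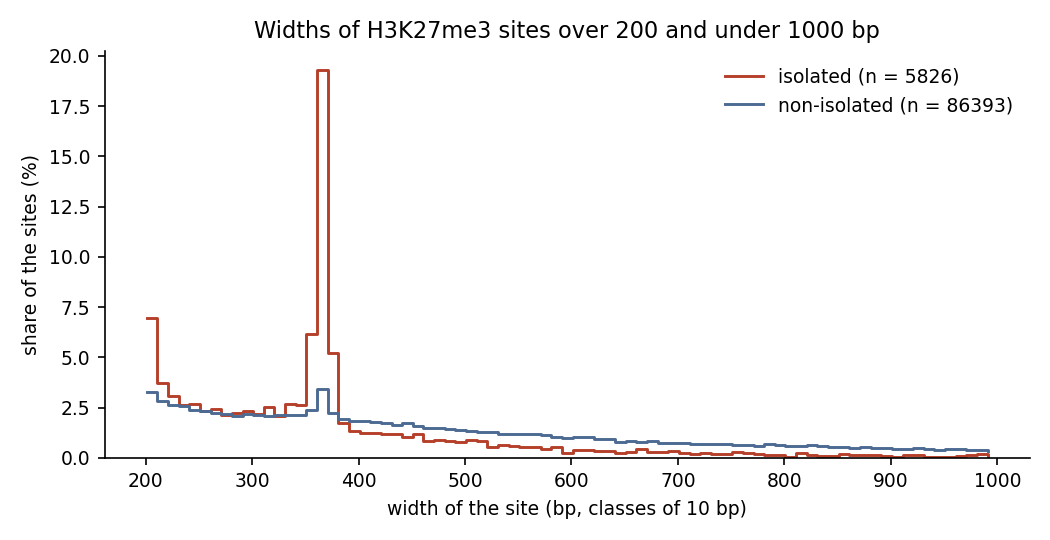
Share of isolated (red, n = 5826) and non-isolated (blue, n = 86393) H3K27me3 sites in each width class of 10 bp, with width in bp on the horizontal axis and share in % on the vertical axis. The isolated sites peak at 361 to 370 bp with 19.3% of their number, where the non-isolated sites reach 3.42%.

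Over all widths, the sequence of the members was poorer in GC than that of non-isolated sites, and it was richer than the sequence in which isolated sites can lie. GC content was 46.04% ± 5.81 (SD over sites, n = 5826) in members and 48.16% ± 4.13 (n = 86393) in non-isolated sites. The means of the autosomes lay between 45.2 and 46.6% for members and between 47.7 and 48.7% for non-isolated sites and did not overlap, while single sites overlapped widely (middle 90% 35.8 to 55.0% and 41.9 to 55.0%). The difference was −2.11 percentage points ± 0.34 (SD over 19 autosomes), with members lower on 19 of 19 autosomes (adjusted permutation p = 1.1e-05). This p came from a two-sided sign-flip permutation test over autosomes with 100000 draws, adjusted by Benjamini-Hochberg over 11 tests, and the smallest p these draws can give is 1e-05. The surroundings differed in the same direction, since the sequence 2 to 10 kb from the centre had 41.75% GC ± 3.81 around members and 44.60% ± 3.32 around non-isolated sites. By the rule, this sequence holds no listed site around members, whereas it can around non-isolated sites. Without the sites of 351 to 380 bp the difference in the sites was −0.69 points. The direction turned with width, since members of 501 to 700 bp had 47.96% GC against 47.90% in non-isolated sites, and those of 701 to 999 bp 48.66% against 47.81%.

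Against their own surroundings the members were GC-rich. The isolated territory, defined as all autosomal bases except N that lie more than 20 kb from every listed site that is not a member, comprised 1435 Mb or 59.9% of the autosomal bases and had 40.5% GC. Members exceeded it by 5.43 points ± 0.57, on 19 of 19 autosomes (adjusted permutation p = 1.1e-05). The site itself exceeded its flanks at 2 to 10 kb in 4454 members (76.5%, 75.3 to 77.5). This share was lower than the 81.4% (81.2 to 81.7) of non-isolated sites. Averaged over all members, the site lay 4.28 points ± 6.19 above its flanks. In non-isolated sites this step was 3.56 points ± 4.35, and the difference between the classes was 0.67 points ± 0.39 (higher on 19 of 19 autosomes, adjusted permutation p = 1.1e-05). By the rule, the flanks of members hold no listed site, whereas those of non-isolated sites often do (median farther neighbour at 3188 bp). The steps were thus not measured against like flanks, and the test cannot separate this from a trait of the sites. The difference between the classes also depended on which sites were counted. It was 2.36 points without the sites of 351 to 380 bp, 0.029 points (adjusted permutation p = 0.788) when each run of non-isolated sites closer than 20 kb was counted once, and 0.24 points (adjusted permutation p = 0.0512) for widths of 300 bp and more.

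**Figure D2:**
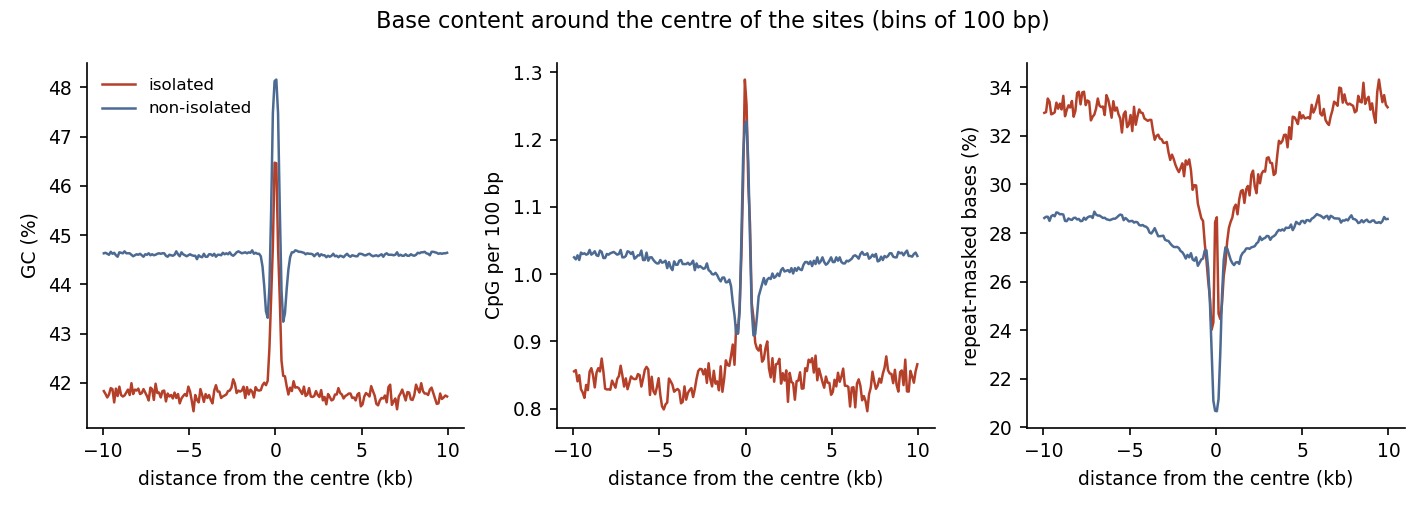
GC content (%), CpGs per 100 bp and repeat-masked bases (%) in bins of 100 bp up to 10 kb from the centre of isolated (red) and non-isolated (blue) sites, with distance in kb on the horizontal axes, and vertical axes that do not start at 0. GC rises to 46.5% at the centre of isolated sites and to 48.2% at that of non-isolated sites, and the masked share at the centre is 28.5% in isolated and 20.7% in non-isolated sites.

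The peak of GC was narrow. In members it fell from 46.5% in the central bin to 43.7% at 250 bp and 41.8% at 950 bp from the centre. Non-isolated sites fell from 48.2% to 43.2% at 450 bp, below their level of 44.7% at 950 bp. No such dip was seen beside the members, which by the rule have no listed site within 20 kb. The nearer neighbour of a non-isolated site lay at a median of 547 bp. Spacing, which chose the members, thus differed at these distances, and its part in the dip was not tested. The masked share of the members was 28.5% just before the centre, 24.7% at 150 bp and 28.6% at 950 bp, whereas non-isolated sites had their lowest value, 20.7%, at the centre.

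Pooled over all widths and locations, CpGs were less depleted in the members. Their ratio of observed to expected CpG, pooled over sites, was 0.239 against 0.209 in non-isolated sites, a difference of 0.027 ± 0.014 that was positive on 18 of 19 autosomes (adjusted permutation p = 1.1e-05). The difference was 0.012 (14 of 19 autosomes, adjusted permutation p = 0.0054) with runs of non-isolated sites counted once, and 0.043 without the sites of 351 to 380 bp. At 351 to 380 bp the pooled ratio was lower in members (0.186 against 0.205). Averaged over sites it was 0.196 against 0.204 in introns, 0.203 against 0.200 outside exons and 0.330 against 0.321 in coding sequence. In the isolated territory the ratio was 0.182 (mean over autosomes). Per 100 bp the members held 1.27 CpGs and the non-isolated sites 1.21. The spread was also wider in the members, since 500 of them (8.58%, 7.89 to 9.33) held no CpG against 4.39% (4.26 to 4.53) of non-isolated sites. At the other end, CpG-rich sequence, defined as GC of at least 50% with a ratio of at least 0.6, made up 83 members (1.425%, 1.15 to 1.76) and 0.672% (0.620 to 0.729) of non-isolated sites.

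The CpG-rich share was higher in members on 15 of 19 autosomes, by 0.63 points ± 0.76 (adjusted permutation p = 0.00204). With runs of non-isolated sites counted once the difference was 0.059 points (adjusted permutation p = 0.779). Of the territory cut into 3864689 tiles of 354 to 382 bp, 0.572% were CpG-rich. The CpG-rich members had a GC content of 59.1% ± 6.29, which lay 15.5 points above their flanks, and 44 of the 83 (53.0%, 42.4 to 63.4) lay within 1 kb of a transcription start site (TSS). Of the CpG-rich non-isolated sites, 265 of 581 (45.6%, 41.6 to 49.7) did so, with an overlapping interval. The other 98.6% of the members were outside this definition.

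Among CpG-rich members with the highest ratios were sites in genes of different roles. In an intron of Zc3h7a, a CCCH zinc finger gene, 302 bp (chr16:11144115-11144416) held 30 CpGs at a ratio of 1.14. A site of 368 bp in the coding exon of Pcdhgb5, a protocadherin of the clustered γ family on chromosome 18, held 47 CpGs at a ratio of 1.09 and was the single CpG-rich member of 351 to 380 bp. A site in coding sequence of the zinc finger gene Zfp697 (chr3:98428195-98428581) held 43 CpGs (1.04), and one in Stx11 (chr10:12941444-12941771), which encodes a SNARE protein, held 33 (0.99). On chromosome 4, an intergenic site (chr4:147738581-147739080) held 62 CpGs (1.02). It lay 405 bp from the TSS of the processed pseudogene Gm13136 and 36278 bp from that of Zfp534, the nearest protein-coding one. Another site on chromosome 4, in an intron of the non-coding RNA C230088H06Rik (chr4:147219432-147219999), held 44 (0.99). The highest ratio, 1.74, belonged to an intergenic site that was 100% repeat-masked and held 1 CpG (chr1:141474893-141475214), and rests on that single CpG.

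Repeat-masked bases, those in lower case in the RefSeq sequence, made up 27.03% ± 28.1 of a member and 20.9% ± 23.4 of a non-isolated site. The difference was 6.16 points ± 2.39, positive on 19 of 19 autosomes (adjusted permutation p = 1.1e-05). Over 50% of the bases were masked in 1238 members (21.3%, 20.2 to 22.3) and in 12.7% (12.4 to 12.9) of non-isolated sites, while members without any masked base were also the more frequent (20.8% against 18.5%). Both classes lay below the 36.1% masked bases of the isolated territory. Without the sites of 351 to 380 bp the difference was 1.00 point ± 3.003, positive on 10 of 19 autosomes (adjusted permutation p = 0.165). By width the masked share was higher in members at 201 to 250 bp (25.6% against 20.7%), lower at 251 to 300 bp (17.98% against 20.1%) and at 701 to 999 bp (16.6% against 20.2%), and differed by under 1 point in the other classes outside 351 to 380 bp.

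Members of 351 to 380 bp resembled the sequence around them more closely than members of other widths did. Their GC content was 42.56% ± 5.64 (n = 1787), 0.21 points ± 5.46 above their flanks, with 50.8% (48.5 to 53.1) of the sites above and the others at or below. Members of other widths had 47.58% ± 5.19 (n = 4039), 6.09 points ± 5.61 above their flanks, and 87.8% (86.8 to 88.8) of them lay above. The masked share was 40.0% ± 25.2 in the class of 351 to 380 bp and 21.3% ± 27.5 in the others, while their flanks hardly differed (32.3% and 32.8%). The CpG ratio was 0.186 against 0.256. Non-isolated sites of 351 to 380 bp had 47.07% GC and 25.7% masked bases, against 48.26% and 20.5% in other non-isolated widths. These values are descriptions of a class chosen after its values were seen.

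**Figure D3:**
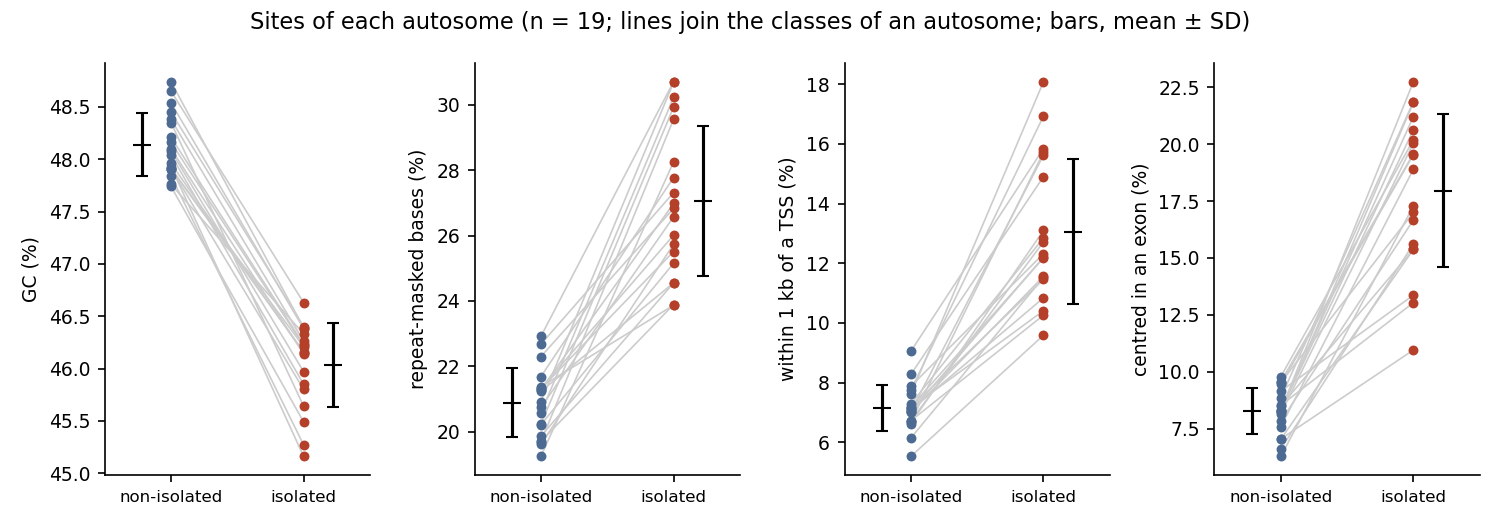
GC content, repeat-masked bases, sites centred within 1 kb of a TSS and sites centred in an exon (all in %) for non-isolated (blue) and isolated (red) sites, with 1 point per autosome and class, grey lines joining the classes of an autosome and bars giving the mean ± SD over 19 autosomes; the vertical axes do not start at 0. GC is lower in isolated sites on 19 of 19 autosomes, and the other measures are higher on 19 of 19.

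Taken over all widths, isolated sites were more often at genes, and above all in exons. Their centre lay within 1 kb of a TSS of any annotated transcript in 765 members (13.13%, 12.29 to 14.02) and in 7.18% (7.01 to 7.35) of non-isolated sites, 1.83 times as often. The difference was 5.90 points ± 2.10 and the share was higher on 19 of 19 autosomes (adjusted permutation p = 1.1e-05). It was 3.25 points with runs of non-isolated sites counted once and 3.64 points with protein-coding genes only. Such windows took 5.16% of the bases of the isolated territory, from which members differed by 7.79 points ± 2.26 (19 of 19, adjusted permutation p = 1.1e-05), or by 4.29 points with protein-coding genes only. Across autosomes the share in members ran from 9.59 to 18.1% and that in non-isolated sites from 5.53 to 9.05%. At the same time members were also more frequent far from a TSS, with 8.51% (7.82 to 9.26) over 100 kb away against 3.35% (3.23 to 3.47) of non-isolated sites.

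Exons held the centre of 1051 members (18.04%, 17.1 to 19.1) and of 8.30% (8.12 to 8.49) of non-isolated sites. The difference was 9.69 points ± 3.18, with members higher on 19 of 19 autosomes (adjusted permutation p = 1.1e-05), and 6.13 points with runs of non-isolated sites counted once. Exons made up 4.24% of the territory, 13.7 points ± 3.07 below the members (19 of 19, adjusted permutation p = 1.1e-05). Introns held 2181 members (37.4%) and 39.6% of non-isolated sites. Intergenic sequence held 2594 members (44.5%, 43.3 to 45.8) against 52.1% (51.8 to 52.4), a difference of −7.57 points ± 4.58 that was negative on 18 of 19 autosomes (adjusted permutation p = 1.1e-05). With 50 kb as the distance it was −4.50 points, positive on 5 of 19 autosomes (adjusted permutation p = 0.0102). Without the sites of 351 to 380 bp, the difference in exonic share was 14.2 points and that at the TSS 8.02 points, both larger than with them. Within 351 to 380 bp no exonic excess was seen, at 8.17% (6.99 to 9.53) of members and 8.30% (7.67 to 8.97) of non-isolated sites. The shares within 1 kb of a TSS were 8.56% (7.35 to 9.95) and 7.16% (6.58 to 7.79) there.

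**Figure D4:**
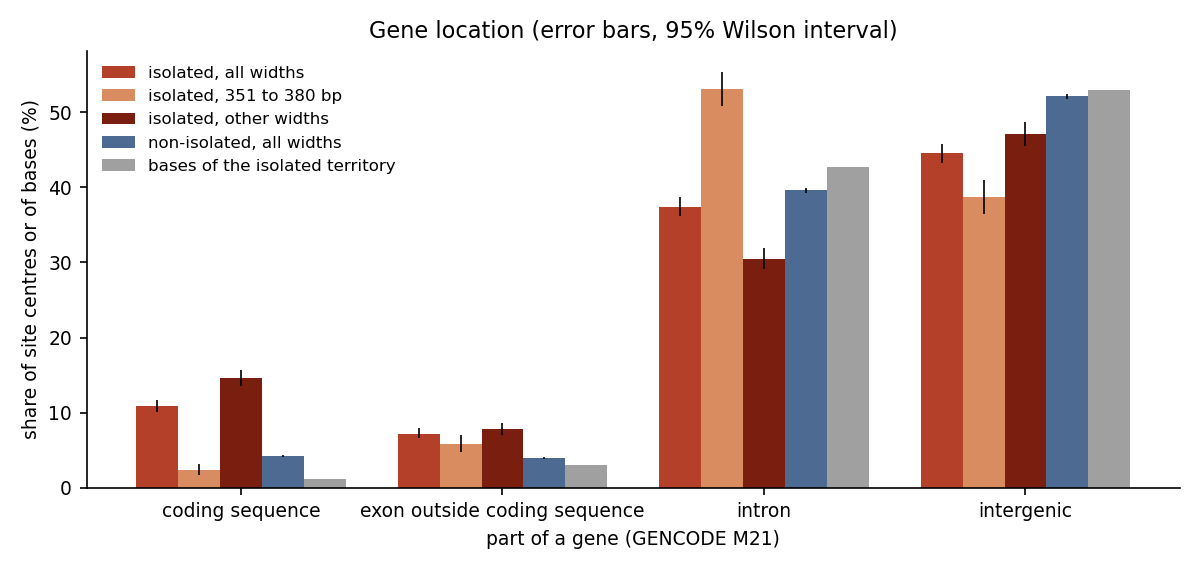
Share (%) of site centres in coding sequence, other exon parts, introns and intergenic sequence for isolated sites of all widths, of 351 to 380 bp and of other widths and for non-isolated sites (bars with 95% Wilson intervals), and the share of bases of the isolated territory in grey. Coding sequence holds 10.8% of isolated sites, 2.35% of those of 351 to 380 bp, 14.6% of those of other widths, 4.30% of non-isolated sites and 1.16% of the territory.

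Most of the exonic excess over all widths lay in coding sequence. The centre of 631 members (10.8%, 10.1 to 11.7) was in coding sequence, of 590 genes, against 4.30% (4.17 to 4.44) of non-isolated sites. The share was 2.52 times that of non-isolated sites and 9.37 times that of the territory (1.16%). These coding members had 49.9% GC ± 5.44, which was 8.52 points above their flanks, with 4.90% masked bases and a CpG ratio of 0.330 ± 0.178. The coding exon that held them had a median length of 416 bp, against 219 bp for non-isolated coding sites, and 188 of them (29.8%) lay in exons of 900 bp or more, against 17.3%. Of the members of 351 to 380 bp 42 were in coding sequence (2.35%, 1.74 to 3.16), and of the other widths 589 (14.6%, 13.5 to 15.7). For non-isolated sites these shares were 4.05% (3.62 to 4.54) and 4.32% (4.18 to 4.46), so the direction turned at 351 to 380 bp. Processed pseudogenes, which are copies of spliced transcripts and so also consist of exon sequence, held 161 members (2.76%, 2.37 to 3.22) and 0.867% (0.807 to 0.931) of non-isolated sites. The coding and pseudogene shares were not tested.

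Named by their GC content, the coding members led with Shroom3 and Pcdhgb5 (68.5%), followed by Slc39a8 (68.4%), Cerkl (67.6%), Zfp316 (67.5%) and Speg (67.5%). The site in Zfp316, a zinc finger gene, was 693 bp wide in an exon of 2354 coding bp (chr5:143254400-143255092) and held 70 CpGs. In Slc39a8, a metal ion importer, 288 bp (chr3:135826468-135826755) lay 522 bp from the TSS. In Cerkl, a gene related to ceramide kinase, 466 bp (chr2:79428615-79429080) were centred 43 bp from the TSS. In Speg, a kinase gene of striated muscle, 249 bp (chr1:75384923-75385171) were centred 219 bp from a TSS. The flanks of these sites had between 40.3% (Cerkl) and 54.2% GC (Speg).

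Of the members within 1 kb of a protein-coding TSS, the highest GC content was that of Slc35g2, a solute carrier gene, with 68.6% over 682 bp (chr9:100570557-100571238), centred 192 bp from the TSS and 30.7 kb and 395.6 kb from its neighbours. After Slc39a8, Cerkl and Speg followed Fam214b (65.8%), the hair keratin-associated Krtap4-7 (65.4%), Cyyr1 (65.3%), the ubiquitin ligase gene Hecw1 (65.2%), Fbrsl1 (64.8%), Zfpm1 (64.8%), a cofactor of GATA factors, Fam196a (64.7%) and Edn3 (64.5%), which encodes endothelin 3. Their CpG content differed widely at like GC. Zfpm1 held 71 CpGs in 871 bp (ratio 0.78) and Fbrsl1 27 in 310 bp (0.84), whereas Krtap4-7 held 5 in 344 bp (0.14) and Fam214b 12 in 491 bp (0.23). The site at Hecw1 lay 461 bp from its TSS and 128 bp from that of the antisense gene Gm30893. The site at Edn3 was 760 bp wide (chr2:174760358-174761117) and centred 61 bp from the TSS, with no other listed site for 84.3 kb on one side and 107.6 kb on the other.

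The 5 members farthest from a neighbour were intergenic. The first, chr3:47271206-47271572, had its nearer neighbour 1423864 bp away, held no CpG and was 367 bp wide. It lay 5589 bp from the TSS of the gene model Gm10730 and 823170 bp from the nearest protein-coding TSS, that of Pabpc4l. The next was chr2:98645284-98645484, whose sequence is given above, with 1014444 bp to its nearer neighbour and 16853 bp to the TSS of the protein-coding Gm10801. It was followed by chr16:53302792-53303158 with 982167 bp to its nearer neighbour, also 367 bp wide, at 101218 bp from Gm22459 and 848901 bp from Alcam. The others were chr3:12253141-12253516 (376 bp, 100% masked, 1218326 bp from Ralyl) and chr14:42278070-42278421 (352 bp, 97.7% masked, 2216 bp from the miRNA gene Gm25892 and 16533 bp from Gm9611). Of these 5, 4 were between 351 and 380 bp wide. A run of N in the assembly of 100 bases or more lay between a member and one of its neighbours in 61 members (1.05%).

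In total 2780 genes held a member, 2122 of them protein-coding, and 1697 of these held 1. The 140 protein-coding genes with 3 or more were long, with a median length of 577.8 kb against 17.6 kb for all protein-coding genes. Nckap5 (917 kb), Fhit (1612 kb), Lsamp (2197 kb) and Gm20388 (4435 kb), a gene model that overlaps others, held 8 each. Fhit encodes a hydrolase and spans a common fragile site, and Lsamp a neuronal adhesion protein. The synaptic adhesion gene Nrxn3 and Agbl1 held 7 each. The number of non-isolated sites beside them differed, with 8 in Agbl1, 11 in Fhit, 37 in Nckap5, 40 in Nrxn3, 64 in Lsamp and 173 in Gm20388. Tied at 6 members were Adamtsl1, Arhgap15, Kalrn, Kctd16, Lrmda, Pcdh9, Rbms3, Rora and Trpm3. The most dense of those was Kctd16, with 21.8 members per Mb of gene.

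The gene families chosen for their link to Polycomb or to tissue-restricted expression are given beside all protein-coding genes, which held 2706 members, or 2.73 per Mb of gene body and 7.44% (7.18 to 7.72) of their same-width sites. Chemosensory receptors (olfactory, vomeronasal and trace amine receptors) held 84 members, 6.58 per Mb and 20.9% (17.2 to 25.1) of their sites, and 75 of the 84 were in coding sequence. Synapse and neural adhesion genes held 111 (2.65 per Mb, 9.35%, 7.82 to 11.1), zinc finger genes 38 (2.94 per Mb, 9.11%, 6.71 to 12.3) and matrix genes 29 (2.89 per Mb, 6.02%, 4.22 to 8.51). Genes of the basic machinery, such as ribosomal and proteasome subunits, held 9 (2.91 per Mb, 12.3%, 6.62 to 21.8). Ion channels held 33 (2.00 per Mb), and their isolated share was the lowest of the lists at 2.69% (1.92 to 3.75), and they held 72.6 non-isolated sites per Mb. The lists were described without a test.

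Olfactory receptor genes have a coding sequence within a single exon and are silent outside the nose and a few other tissues. Coding sequence of 74 of the 1128 annotated Olfr genes held 1 member each, which was 11.7% of all coding members, while 127 non-isolated sites in Olfr coding sequence made up 3.42% of the non-isolated coding sites. The 74 members had a median width of 380 bp, 46.6% GC ± 3.22, 5.68% masked bases and a CpG ratio of 0.181 ± 0.101. They were low in CpG compared with all coding members (0.330). Many Olfr genes are close copies of each other, and the study filtered its alignments after ENCODE without spelling out the handling of reads that match several copies, so single receptor sites are uncertain.

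Developmental regulators held 15 members in 8 of 198 genes, while 2122 of all 20807 protein-coding genes held a member. The 15 members made 2.17 per Mb of gene body and 6.36% (3.89 to 10.2) of the same-width sites in these regulators. None of the 15 was within 1 kb of a TSS of its gene. The closest were in coding exons of Foxn3 (4446 bp from the TSS, chr12:99388380-99388872), Six4 (4489 bp, chr12:73108680-73109191) and Foxp1 (5618 bp, chr6:98940992-98941333), which encode a forkhead, a homeobox and a forkhead factor. The site in Foxp1 had a CpG ratio of 0.72 at 49.7% GC, just under the GC limit for CpG-rich. Further coding sites were in Foxp2, Tbx15, Foxo1 and Sox6, and Sox5 held 5 intronic members, Sox6 2 and Foxo1 1. No Hox, Pax, Gata, Nkx, Lhx, Irx, Dlx, Pou or Wnt gene held a member in its body or near its TSS. The rule leaves out any site within 20 kb of another listed site, and the whole list covered 6.91 Mb of gene body. The absence cannot be told apart from the effect of the rule or of short genes, and was not tested.

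Short motifs were counted on both strands, as descriptions. Runs of 6 CA units (cacacacacaca) were in 2.16% (1.82 to 2.57) of members, 3.22% (3.11 to 3.35) of non-isolated sites and 5.02% of the territory tiles. Runs of 6 GA units (gagagagagaga) were in 1.68% (1.38 to 2.05), 1.93% and 2.23%. The Sp1 box GGGCGG was in 5.36% (4.81 to 5.96), 6.75% (6.58 to 6.92) and 2.76%, and the E-box CACGTG in 4.10% (3.62 to 4.64), 6.65% (6.48 to 6.82) and 3.19%. A wider site has more room for a motif, and non-isolated sites were wider (mean 468.5 against 370.6 bp). At the like widths of 351 to 380 bp, the CA run was in 4.37% (3.51 to 5.41) of members and 3.08% (2.70 to 3.51) of non-isolated sites, the Sp1 box in 3.02% (2.32 to 3.92) and 4.90% (4.42 to 5.44), and the E-box in 4.31% (3.46 to 5.35) and 4.39% (3.93 to 4.89). The GA run was in 2.52% (1.89 to 3.35) of members and 1.57% (1.30 to 1.89) of non-isolated sites of this class. The lower shares of CA and GA runs in all members were not seen in this class, and neither was the difference in the E-box. In members of other widths the CA run was in 1.19% (0.898 to 1.57).

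The chromosomes differed more in the isolated share than in the number of isolated sites per Mb. The share of same-width sites that were isolated ran from 4.79% (4.30 to 5.32) on chromosome 7 to 9.49% (8.59 to 10.5) on chromosome 3, a ratio of 1.98. Chromosomes 18 (8.75%) and 10 (8.59%) followed chromosome 3 with overlapping intervals, and chromosomes 9 (4.80%), 8 (4.89%) and 17 (4.97%) lay next to chromosome 7. Chromosome 1 held the most members, 519 or 8.91% of them, and chromosome 19 the fewest, 164 or 2.82%. Per Mb of chromosome the members ran from 1.99 (chromosome 17) to 2.79 (chromosome 18), while all listed sites ran from 34.5 (chromosome 3) to 85.4 per Mb (chromosome 11).

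Across the 19 autosomes the isolated share fell with the density of listed sites (Pearson's r = −0.896, Spearman's rho = −0.885, r = −0.903 without the 2 chromosomes farthest from the median density). Since spacing chose the members, the relation is a description and both measures come from the same list. The number of members per Mb had no such relation (r = 0.057, rho = −0.063, r = −0.315 without 2). Per Mb of isolated territory it ran from 3.14 on chromosome 3 to 6.25 on chromosome 11 (r = 0.654, rho = 0.484, r = 0.342 without 2).

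**Figure D5:**
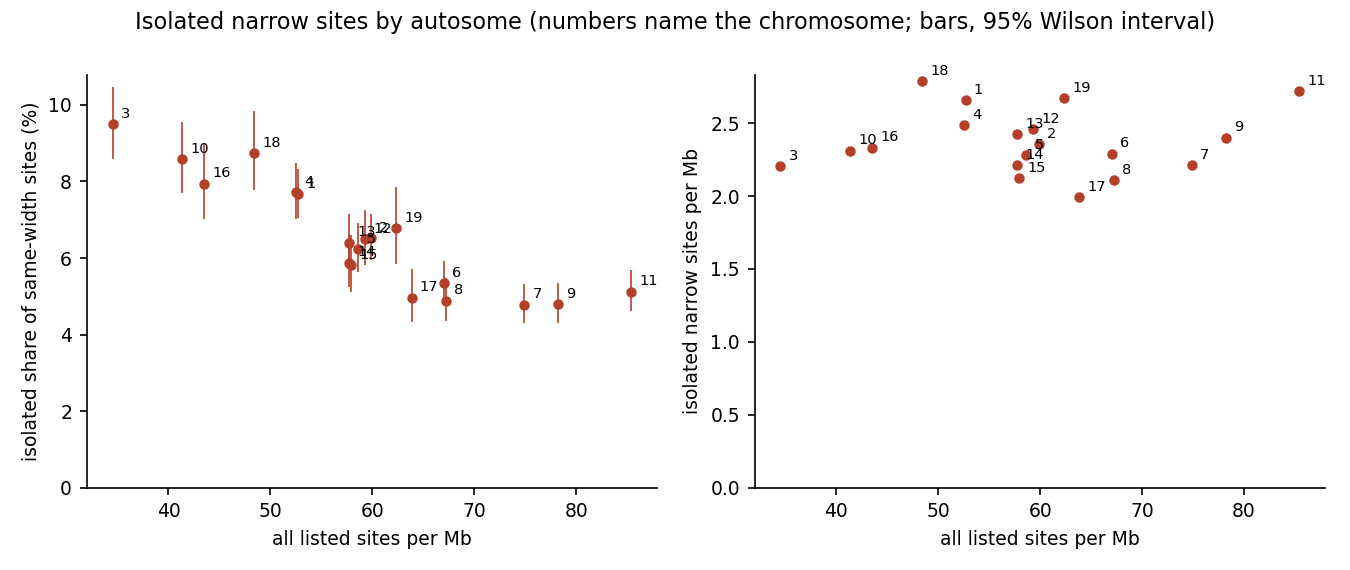
Isolated sites as a share (%) of same-width sites (left, with 95% Wilson intervals) and isolated sites per Mb (right) against all listed sites per Mb, with 1 point per autosome named by its number. The share falls from 9.49% on chromosome 3 to 5.12% on chromosome 11, the densest, while the number per Mb stays between 1.99 and 2.79.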

How the data were processed

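The authors aligned H3K27me3 ChIP-seq reads of iMEF cells to mm10 (GRCm38.p6), called broad peaks with MACS2 (version not given in the sources used here) and combined them over all samples. The deposited file gives a chromosome, start and end per site and neither a count nor a score. It has 0 columns of values per library, so samples could not be compared, replicates cannot be averaged and depth is unknown. The smallest end minus start is 200 bp, so positions were read as counted from 0 and are printed from 1.

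Sites were set against the RefSeq GRCm38.p6 sequence and GENCODE M21, an earlier annotation than the study's. The expected CpG number was C times G over length. The centre of a site gave its gene location, in the order coding sequence, other exon, intron, intergenic. Members and lists were chosen with earlier results of these data known. Isolated minus reference values within each of the 19 autosomes were tested with a two-sided sign-flip permutation test (100000 draws), adjusted over 11 tests at a threshold of 0.05. Sites of 1 chromosome share their surroundings, so p-values measure the spread between autosomes, and Wilson intervals (95%) cover the counting of sites only. Named were the 5 members farthest from a neighbour, the 8 CpG-rich members with the highest ratio, the 12 at a protein-coding TSS and the 6 in coding sequence with the highest GC, the 8 genes with most members (with ties), and developmental genes. Alternatives were 10 kb or 50 kb as the distance, widths from 300 bp, assembly gaps, chromosome ends, weighted widths, runs counted once, a 1 kb window, protein-coding genes, any overlap and repeats. Leaving out 351 to 380 bp was chosen after seeing the data. The scripts were tested on simulated data. Python 3.11.15, numpy 2.4.6, scipy 1.17.1 and pandas 2.3.3 were used. The sequence of 1 further member that the rule would have shown is not reported here.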

Additional observations from a re-analysis of the deposited data

How the results depend on the processing

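No paired analysis was possible because only positions are given, without a value for any replicate, and replicates could not be left out for the same reason. Of 112 recomputed values, 105 kept their direction and call. With runs of non-isolated sites counted once, the difference in CpG-rich share was 0.059 points and that in GC above flanks 0.029 points. With widths of 300 bp and more, the latter was 0.24 points. Without sites of 351 to 380 bp, a choice made after seeing the data, the difference in repeat-masked share was 1.00 point. These 4 values no longer passed the test, and the cause was not tested beyond the alternatives themselves. Other values that moved by over 1.5 times, here and beside the results, kept their call. In a fixed 1 kb window the difference was 2.43 points in repeat-masked share, 1.06 points in GC above flanks and 0.015 in CpG ratio, and the difference in CpG-rich share was 1.198 points without sites of 351 to 380 bp and 1.00 point at 50 kb. The number of isolated sites was 9751 at a distance of 10 kb and 2255 at 50 kb, and the ratio between the highest and the lowest isolated share of an autosome was 3.83 at 50 kb against 1.98. Both follow from the distance that defines a member. The list limits the results, since it gives no signal, depth or library for a site, and it cannot be told how many libraries a site was called in.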

Other observations

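The same rule applied to the sex chromosomes, which were outside the comparisons, gave 390 isolated sites among 6350 same-width sites of chromosome X, or 6.14% (95% Wilson interval 5.58 to 6.76), and 2 among 5 on chromosome Y. On chromosome X, widths of 351 to 380 bp made up 19.2% of the isolated sites, below the 25.7 to 35.9% of the autosomes.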
